A study of Mus musculus with 2 samples.

Results

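The miR-29 family of the mouse comprises 4 microRNA (miRNA) genes, Mir29a, Mir29b-1, Mir29b-2 and Mir29c, and was examined in the stomach of newborn mice. The members were taken by gene symbol from the 1973 miRNA genes in the count tables, and all 4 were present. MicroRNA sequencing, which reads RNA molecules shorter than 30 nucleotides (nt), was carried out on whole stomachs of the strain B6NCrl at postnatal day 0. The 2 libraries come from different pups of 1 dam, with 1 stomach each and the sex not collected, and they form 1 group without a contrast between conditions. Spreads are therefore those between 2 littermates, and no messenger RNA of a matrix gene was measured.

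miRNAs guide the RNA-induced silencing complex to messenger RNAs that pair with the seed, bases 2 to 8 of the mature strand. The miR-29 family is known for repressing many genes of the extracellular matrix, including fibrillar collagens, elastin and fibrillin, and also the de novo DNA methyltransferases. In fibroblasts TGF-beta lowers miR-29 and matrix production rises, and the family is therefore regarded as a restraint on fibrosis. In the mouse brain miR-29 is low before birth and rises as the tissue matures.

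The mature strands show what the 4 genes share and which reads can be told apart. All 4 hairpins carry a 3' strand (3p) with the same seed, written in capitals below with the rest of the strand in lower case. Sequences are from RefSeq on GRCm38.p6, 5' to 3'.
mmu-miR-29a-3p: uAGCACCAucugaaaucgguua
mmu-miR-29b-3p: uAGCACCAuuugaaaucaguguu
mmu-miR-29c-3p: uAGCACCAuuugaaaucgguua
The strand of miR-29a lies on chromosome 6 at 31062673 to 31062694 (minus strand), and that of miR-29c on chromosome 1 at 195037600 to 195037621 (plus strand). The strand of miR-29b is encoded on chromosome 6 at 31063025 to 31063047 (minus strand) and again on chromosome 1 at 195037091 to 195037113 (plus strand).

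The reference table, in which some miRNA genes are missing, holds 1674 distinct mature sequences. Of these sequences 3, those above, carry the seed AGCACCA, and 4 genes encode them. Of the table's 1398 distinct seeds, 23 (1.65%) belong to 4 or more of its genes. miR-29a and miR-29c are identical at 21 of 22 bases and differ by C10U, where positions count from 1 at the 5' end and the base of miR-29a is given first. miR-29c and miR-29b share their first 17 bases and differ by G18A, U21G and A22U, after which miR-29b has 1 further base. The end of miR-29b, AGUGUU, is known from human cells as a signal for import into the nucleus. In the mature sequences as written, 12 of 1674 (0.717%) hold these letters and 2 (0.119%) end with them. A run of U at bases 9 to 11, linked in human cells to fast decay of miR-29b, stands in miR-29b and miR-29c but not in miR-29a, and in 24 of the 1674 sequences (1.43%).

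The hairpins of the chromosome 6 pair are shown because both of their mature strands can be compared, with the mature strands in capitals.
Mir29a hairpin: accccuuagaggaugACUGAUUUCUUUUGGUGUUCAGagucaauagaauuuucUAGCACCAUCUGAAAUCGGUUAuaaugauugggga
Mir29b-1 hairpin: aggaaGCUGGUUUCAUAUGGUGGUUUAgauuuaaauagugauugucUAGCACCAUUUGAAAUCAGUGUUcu
The first mature strand of each is the 5' strand (5p) and the second the 3p. For the miR-29b genes only the 5p strands differ, and they are shown with their own seeds in capitals.
mmu-miR-29b-1-5p: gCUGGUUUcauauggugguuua
mmu-miR-29b-2-5p: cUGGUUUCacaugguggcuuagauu
The strand mmu-miR-29b-1-5p lies on chromosome 6 at 31063067 to 31063088 (minus strand), and mmu-miR-29b-2-5p on chromosome 1 at 195037050 to 195037074 (plus strand). Moved by 1 base against each other they match at 19 bases, whereas base by base from the 5' end they match at 7 of 22, so their seeds differ.

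A read can be assigned to 1 gene only where its sequence occurs once. Of all windows of 18 nt in the hairpin of Mir29a, 71 of 71 occurred in no other of the 1005 RefSeq hairpins. For Mir29c the number was 66 of 71, and each of the 5 windows within its mature 3p strand was unique. Unique here means among these RefSeq hairpins, and the rest of the genome was not searched. The hairpin of Mir29c shares a stretch of 22 nt with that of Mir29b-1, but this stretch ends within the mature strand. The hairpins of Mir29b-1 and Mir29b-2 share 25 nt, and 0 of the 6 windows of their common 3p strand were unique. All windows of their 5p strands were unique, 5 of 5 for Mir29b-1 and 8 of 8 for Mir29b-2. The counts of both miR-29b genes therefore cannot include full-length reads of miR-29b-3p that were required to map to 1 place.

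The 4 genes form 2 close pairs in the genome. Mir29a (ENSMUSG00000065610.1) lies at 31062660 to 31062747 on the minus strand of chromosome 6 (GRCm38), 275 bp from Mir29b-1 (ENSMUSG00000065604.1) at 31063023 to 31063093. Mir29a overlapped no other annotated gene, and Mir29b-1 overlapped by 2 bp the exon of the long non-coding RNA Gm27019 on its own strand. On the plus strand of chromosome 1, Mir29b-2 (ENSMUSG00000065412.2) at 195037040 to 195037120 lies 426 bp from Mir29c (ENSMUSG00000065548.1) at 195037547 to 195037634. Both lie within an exon of a retained-intron transcript of the non-coding gene A330023F24Rik on their own strand. On the opposite strand both lie within an untranslated part of the last exon of the transcript Cd46-203 of Cd46, which encodes a complement regulator.

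The libraries held 4463355 reads on the miRNA genes' own strand in pup 1 and 3454655 in pup 2, and levels are given as counts per 1000000 of these (CPM). A count of 0 would allow up to 0.672 CPM in pup 1 and 0.868 CPM in pup 2. Reads mapping to several places, 26.0% and 25.7% of all reads, are outside the gene counts. Markers of the labelled tissue were present. Both smooth muscle genes (Mir143, Mir145a; 24.8% of counts), all 3 of squamous epithelium (Mir203, Mir205, Mir31; 11.4%), all 4 of glandular epithelium (Mir192, Mir215, Mir194-1, Mir194-2; 0.792%) and the endothelial Mir126a (3.50%) were detected, which here means 10 or more counts in both libraries. So were all 5 genes of mesenchyme and fibroblasts (0.528%), all 4 of leukocytes (0.0636%) and the hepatocyte gene Mir122 (0.0230%). Detection was lacking in part or whole for striated muscle (2 of 6 genes, 0.0272%, with Mir133a-1 and Mir133a-2 at 0) and for pancreatic acinar cells (0 of 3, 0.000265%). The striated muscle share was 0.0177% in pup 1 and 0.0366% in pup 2, with Mir206 at 435 and 914 counts. Mir1a-1, Mir133a-1 and Mir133a-2 share 20 nt or more with another annotated hairpin. Reads mapping to several places are outside their counts, so low counts of these genes do not show absence.

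Mir29a and Mir29c were detected at moderate levels, and the miR-29b genes were near the limit of the libraries. Thus 2 of 4 members passed the detection minimum, against 15.5% of all miRNA genes. Mir29a, the member with the most counts, had 648 counts in pup 1 and 487 in pup 2, which is 145 CPM (exact 95% Clopper-Pearson interval 134 to 157) and 141 CPM (129 to 154). The intervals of the pups overlapped almost wholly. Mir29c had 460 and 430 counts, or 103 CPM (93.9 to 113) in pup 1 and 124 CPM (113 to 137) in pup 2. The intervals of the pups meet at 113 CPM within rounding but did not overlap, with pup 2 the higher. This holds for CPM, which scale by totals only, and the pup test below uses another scaling. Intervals and limits cover counting error only. They treat each read as an independent molecule, although reads copied by PCR from 1 molecule could not be told apart in these counts.

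Mir29b-1, the neighbour of Mir29a, had 4 counts in each pup, or 0.896 CPM (0.244 to 2.29) and 1.16 CPM (0.315 to 2.96). Mir29b-2, the neighbour of Mir29c, had 2 counts in pup 1 and 4 in pup 2, or 0.448 CPM (0.0543 to 1.62) and 1.16 CPM (0.315 to 2.96). The miR-29b genes could not be ordered at this depth, as each interval contained the other gene's level. Each was far below both other members in each pup.

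**Figure D1:**
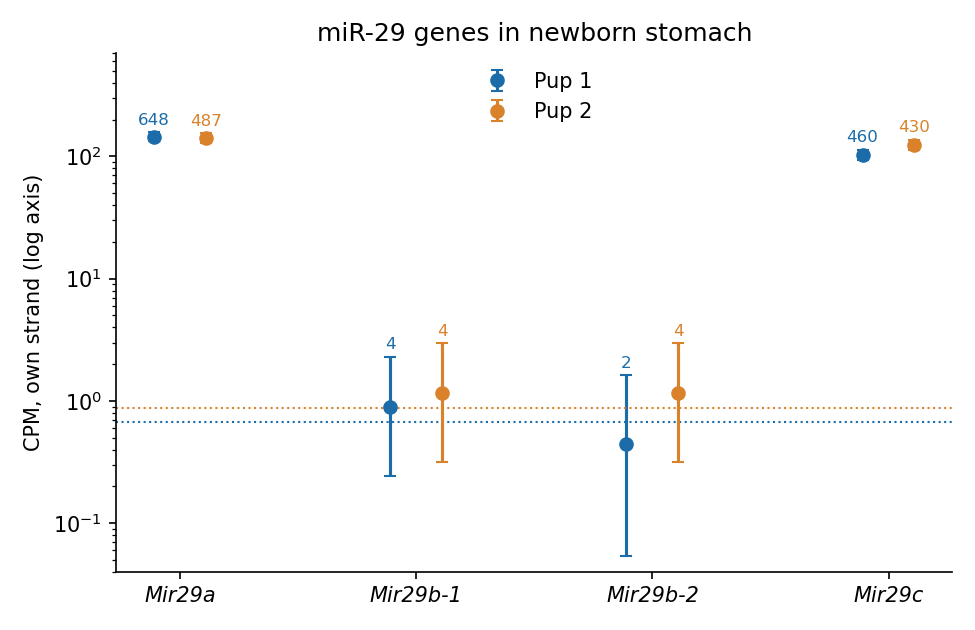
Level of the 4 miR-29 genes in the stomach of pup 1 (left point of each gene) and pup 2 (right point), in CPM on a log axis, with exact 95% counting intervals. Numbers above the points are raw counts, and dotted lines mark the level that a count of 0 allows in each library. Mir29a and Mir29c stand above 100 CPM, and the miR-29b genes stand at these lines.

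As means of the pups, Mir29a stood at 143 ± 2.98 CPM, Mir29c at 114 ± 15.1 CPM, Mir29b-1 at 1.03 ± 0.185 CPM and Mir29b-2 at 0.803 ± 0.502 CPM (SD, n = 2). The spread of Mir29a between pups, a coefficient of variation of 2.08%, was below the 3.93% and 4.53% that counting alone gives. For Mir29c it was 13.3%, against counting errors of 4.66% and 4.82%. These spreads hold with totals as the only scaling, where the log2 ratio of pup 1 over pup 2 was 0.04 for Mir29a and -0.27 for Mir29c. With library sizes from edgeR's TMM method, used for the pup test below, the log2 ratios were 0.15 and -0.17. The contrast in spread between Mir29a and Mir29c therefore depends on the scaling. The summed level of the 4 genes, in which full-length miR-29b-3p is not counted, was 250 CPM in pup 1 and 268 CPM in pup 2, from 1114 and 925 counts. Mir29a and Mir29c gave 99.5% of the family's counts in pup 1 and 99.1% in pup 2, so the summed level describes these genes. Since whole stomachs were sequenced, fewer cells of a type and less miRNA per cell cannot be told apart.

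Among all 1973 genes, Mir29a ranked 161st and Mir29c 173rd by mean level. Of the 305 detected genes, 160 stood above Mir29a and 172 above Mir29c, and 11 lay between them. The genes nearest in level to Mir29a were Mir370, an imprinted gene of the Dlk1-Dio3 region, at 144 ± 5.13 CPM and Mir449a, a multiciliated cell gene, at 141 ± 4.76 CPM. Those nearest to Mir29c were Mir485, also of the Dlk1-Dio3 region, at 117 ± 12.1 CPM and Mir135b at 109 ± 14.7 CPM. Each gap to these neighbours, 0.943 and 1.93 CPM for Mir29a and 3.35 and 4.33 CPM for Mir29c, was smaller than the SD of either gene. Compared within each library, the mean log2 ratio was within its SD for Mir29a over Mir370 (-0.01 ± 0.02) and Mir29c over Mir485 (-0.04 ± 0.34). It was larger than its SD for Mir29a over Mir449a (0.020 ± 0.019) and for Mir29c over Mir135b (0.056 ± 0.0020), with the same sign in both pups. An SD of 2 values can be small by chance. In pup 1 and pup 2 the counts were 648 and 487 against 645 and 476 for Mir449a. For Mir29c they were 460 and 430 against 442 and 414 for Mir135b. These gaps are smaller than the counting errors of Mir29a and Mir29c given above, so the genes were not told apart in level. Likeness here means the mean level over 2 libraries and no more. Mir29b-1 ranked 385th and Mir29b-2 409th.

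**Figure D2:**
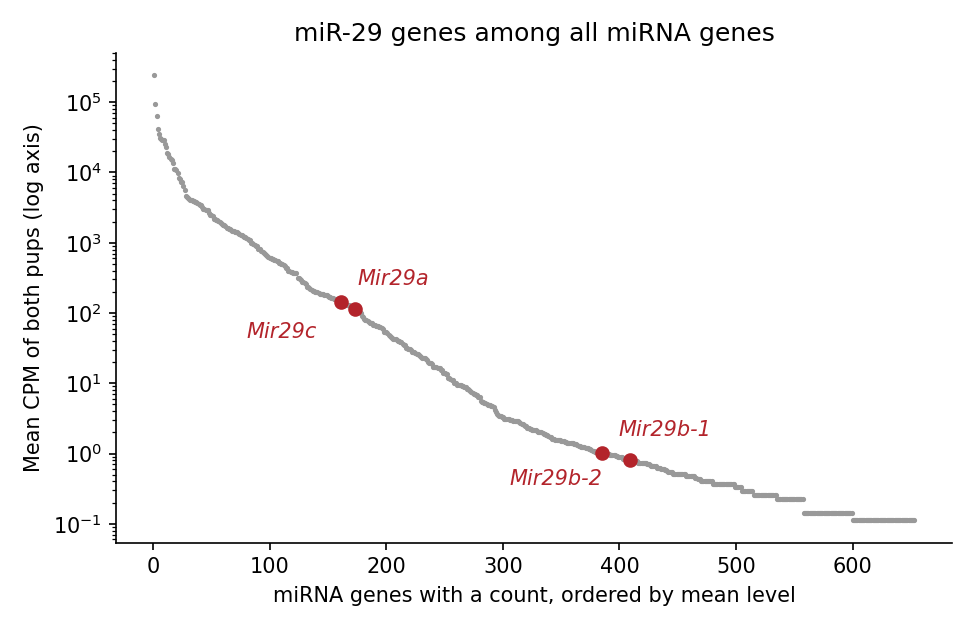
Mean CPM of both pups (log axis) for every miRNA gene with at least 1 count, ordered from high to low, with the 4 miR-29 genes in red. Mir29a and Mir29c lie near the middle of the detected genes, and both miR-29b genes lie in the tail that did not pass the detection minimum.

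The members were set against each other within each library. In this assay a read spans 1 whole small RNA, so counts were not divided by hairpin length. Fold values are ratios of the raw counts, and log2 ratios are of counts with 0.5 added to each. Mir29a exceeded Mir29c 1.41-fold in pup 1 (counting interval 1.25 to 1.59) and 1.13-fold in pup 2 (0.993 to 1.29). The mean log2 ratio was 0.34 ± 0.22 (SD, n = 2). It was larger than its SD, which with 2 values does not settle the order. The order was the same in both pups, but in pup 2 the interval contained equality.

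Mir29a exceeded its genomic neighbour Mir29b-1 162-fold in pup 1 (63.0 to 596) and 122-fold in pup 2 (47.2 to 449), and the mean log2 ratio was 6.97 ± 0.29 with 0.5 added and 7.13 without. Mir29c exceeded its neighbour Mir29b-2 230-fold in pup 1 (63.3 to 1905) and 108-fold in pup 2 (41.7 to 396), and the mean log2 ratio was 7.05 ± 0.67 with 0.5 added and 7.30 without. The intervals are wide because the lower member had 2 to 4 counts. With 2 libraries an exact permutation test cannot give a p below 0.5. The SD and the counting intervals are the only measures of error for these ratios. Neither takes in an error of a gene's reads that is alike in both libraries. Ratios between genes are therefore of reads and not of molecules. The ratios compare reads assigned to a gene, which for Mir29b-1 and Mir29b-2 cannot include full-length miR-29b-3p mapped to 1 place. The part of this in the ratios was not tested.

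Neighbouring miRNA genes of which at least 1 was detected often differed widely in counts. There were 89 pairs of adjacent miRNA genes on 1 strand, at most 1000 bp apart and with at least 1 gene detected. Their median difference was 3.90 on the log2 scale, or 14.9-fold. Ordered from the widest difference, Mir29c with Mir29b-2 ranked 25th and Mir29a with Mir29b-1 26th. In 34 of the 89 pairs, both miR-29 pairs included, 1 gene was not detected. Such pairs passed the filter through their higher gene alone, which widens the median difference over all 89 pairs.

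The miR-29b genes were also set beside other genes built alike. Among 916 measured genes with a mature sequence in the reference table, 53 have 1 mature strand that another gene of the table encodes identically and 1 strand of their own. Of these genes 34 were detected (64.2%), and their median level was 16.4 CPM. The levels of these genes ran from 0 to 2434 CPM for Mirlet7f-2, a gene of the let-7 family. Mir29b-1 ranked 39th and Mir29b-2 42nd of the 53. Where no mature strand is shared, as in Mir29a and Mir29c, 242 of 829 genes (29.2%) were detected with a median of 0.257 CPM, and where every strand is shared, 6 of 34 (17.6%) were. The grouping was chosen after values of the members were known and is a description of these tables.

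**Figure D3:**
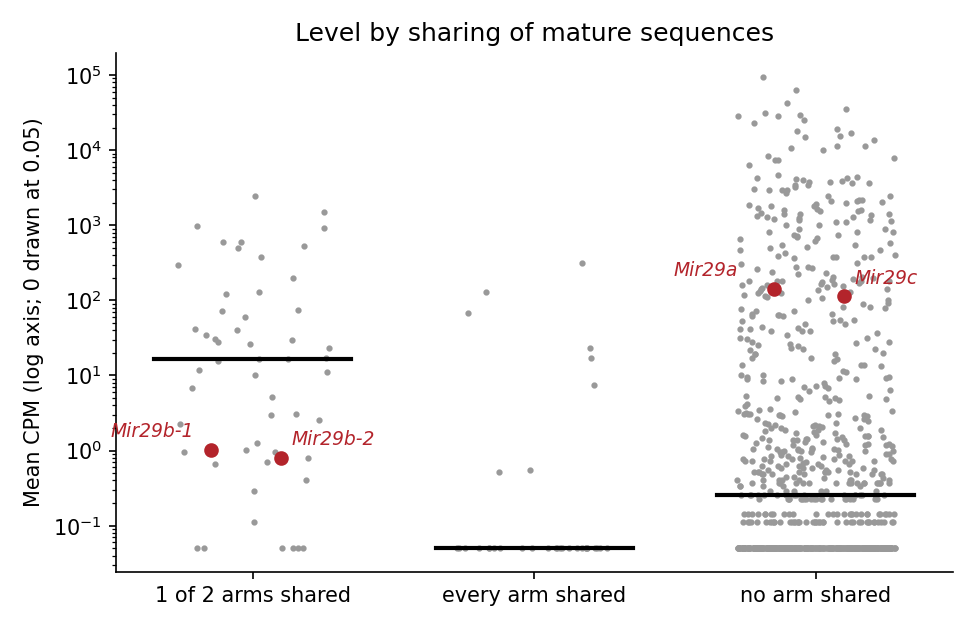
Mean CPM (log axis, with 0 drawn at the bottom) of 916 miRNA genes, by whether 1 of 2, every or no mature strand is encoded identically by another gene in the reference. Black bars are medians and red points the miR-29 genes, of which Mir29b-1 and Mir29b-2 lie below the median of their class and Mir29a and Mir29c above that of theirs.

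No read of the family came from the opposite strand, which for Mir29b-2 and Mir29c is the strand of Cd46. Mir29a had 0 opposite reads beside 1135 own-strand reads in both pups together, which allows up to 0.264%, and Mir29c had 0 beside 890, which allows up to 0.337%. The same held for 286 of the 305 detected genes (93.8%).

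Neither detected member was called different between the pups. Each of the 305 detected genes was tested for a pup difference by the exact binomial test (two-sided), with library sizes from edgeR's TMM method and Benjamini-Hochberg adjustment. A call required a difference of 1.5-fold or more together with an adjusted p below 0.05. Here 0 of 2 members were called, against 2.95% of all detected genes. The levels of Mir29a, 145 CPM in pup 1 and 141 CPM in pup 2, gave a log2 ratio (pup 1 over pup 2) of 0.15, with an exact 95% interval of -0.03 to 0.32 (unadjusted p = 0.095, adjusted p = 0.16). For Mir29c, at 103 and 124 CPM, it was -0.17 (-0.36 to 0.02; unadjusted p = 0.086, adjusted p = 0.15). Both intervals exclude a 1.5-fold difference, and the members differed in sign. Over all detected genes the median absolute log2 ratio was 0.17, and 178 genes differed by more than Mir29a and 156 by more than Mir29c. With totals as the only scaling, the median gene lay at -0.13, and Mir29a and Mir29c then stood at 0.04 and -0.27. At an adjusted p under 0.05 with any ratio, 52.1% of the detected genes passed and neither member did. The p-values concern these libraries and take in counting error alone.

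**Figure D4:**
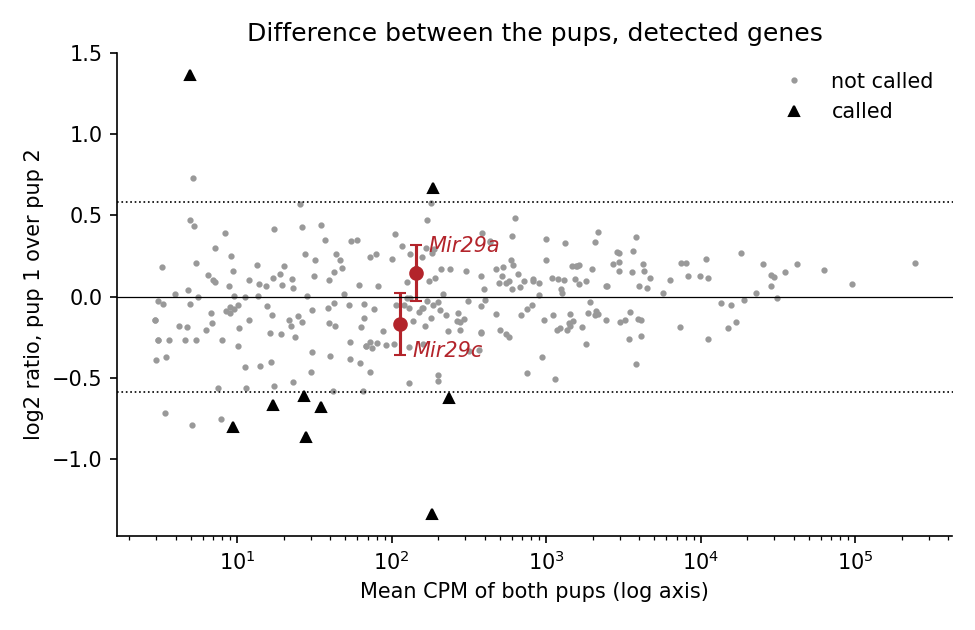
Log2 ratio of pup 1 over pup 2 after TMM scaling against mean CPM (log axis) for the 305 detected genes, with the 9 called genes as triangles and a 1.5-fold difference as dotted lines. Mir29a (0.15) and Mir29c (-0.17), in red with exact 95% intervals, lie within the bulk of genes of like level.

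In reads assigned to 1 gene, miR-29 was a minor part of the miRNAs that are linked to the matrix. Full-length miR-29b-3p mapped to 1 place cannot be among these reads. The shares and ratios of miR-29 given here and for the other lists therefore leave it out. The genes of mesenchyme were detected in 5 of 5 cases and were led by Mir214, found with the miR-199 genes in mesenchymal cells (3678 CPM in pup 1, 3552 in pup 2), and by Mir140, a gene of cartilage and mesenchyme (1237 and 1310 CPM). The miR-29 genes held 0.0250% of counts in pup 1 and 0.0268% in pup 2, against 0.528% and 0.527% for the mesenchyme genes. The log2 ratio of the summed shares, miR-29 over mesenchyme, was -4.35 ± 0.072 (SD, n = 2), or 20.4-fold lower for miR-29, far more than its SD. The SD of this and the later list ratios is that between 2 littermates. It takes in no error that both libraries share, so these are ratios of reads. Within that list Mir199a-2 (67.8 CPM) and Mir199a-1 (7.54 CPM) stood below Mir29a and Mir29c, and Mir199b (312 CPM) above them. Every listed mature strand of these miR-199 genes is also encoded by another gene, whereas Mir29a and Mir29c share no mature strand. The counts of the miR-199 genes can therefore leave out reads mapping to several places.

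Of the miRNA genes reported to promote fibrosis, 7 of 7 were detected. Mir21a, which is induced in activated fibroblasts, was the highest at 30076 CPM in pup 1 and 32455 CPM in pup 2, and Mir214 followed. The log2 ratio of the summed shares, miR-29 over this list, was -7.21 ± 0.012. Most of the list's share came from Mir21a. Mir192, an epithelial gene, stood at 2692 CPM, Mir34a, a target of p53, at 548 CPM, and Mir155, a gene of immune cells, at 54.1 CPM, below Mir29a and Mir29c.

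Besides miR-29, 20 genes were listed as reported to restrain matrix genes or TGF-beta signalling, of which 18 were detected and Mir133a-1 and Mir133a-2 had no count. Mir133a-1 and Mir133a-2 share 20 nt or more with another annotated hairpin, so their lack of counts does not show absence. Mir429, of the epithelial miR-200 family, led with 30024 CPM in pup 1 and 29619 CPM in pup 2, before Mir26b with 28865 and 28210 CPM. The log2 ratio of the summed shares, miR-29 over this list, was -8.78 ± 0.0042. The members ranged widely, and some stood near or below miR-29. The miR-101 gene Mir101a had 157 ± 13.1 CPM, close to Mir29a at 143 ± 2.98 CPM, and Mir30c-1 (30.0 CPM) and Mir26a-1 (11.2 CPM) were lower than Mir29c. Mir101a shares 20 nt or more with another annotated hairpin, and Mir29a does not. The count of Mir101a can therefore leave out reads mapping to several places. Mir30c-1 and Mir26a-1 each have 1 mature strand that another gene encodes identically, and Mir29c has none. Their counts can therefore leave out reads that those of Mir29c include. These lists hold 5, 7 and 20 genes against the 4 of miR-29, and the median member stood at 57.4 CPM for miR-29 against 312, 548 and 850 CPM. Of the miR-29 genes 3, and in the same order 3, 2 and 9 members of the lists, share 20 nt or more with another annotated hairpin. Without such genes, miR-29 held 0.0143% of counts, from Mir29a alone, against 0.489%, 3.82% and 11.2% for the lists. The log2 ratios were then -5.09, -8.06 and -9.61. Their shift away from 0 follows from the removal of Mir29c, although each window of its mature strands is unique among the RefSeq hairpins. It is therefore no further evidence that miR-29 is low. Between the pups, 0 of 5, 0 of 7 and 1 of 18 tested list genes (Mir30c-2, higher in pup 2) were called, beside the 2.95% of all detected genes.

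**Figure D5:**
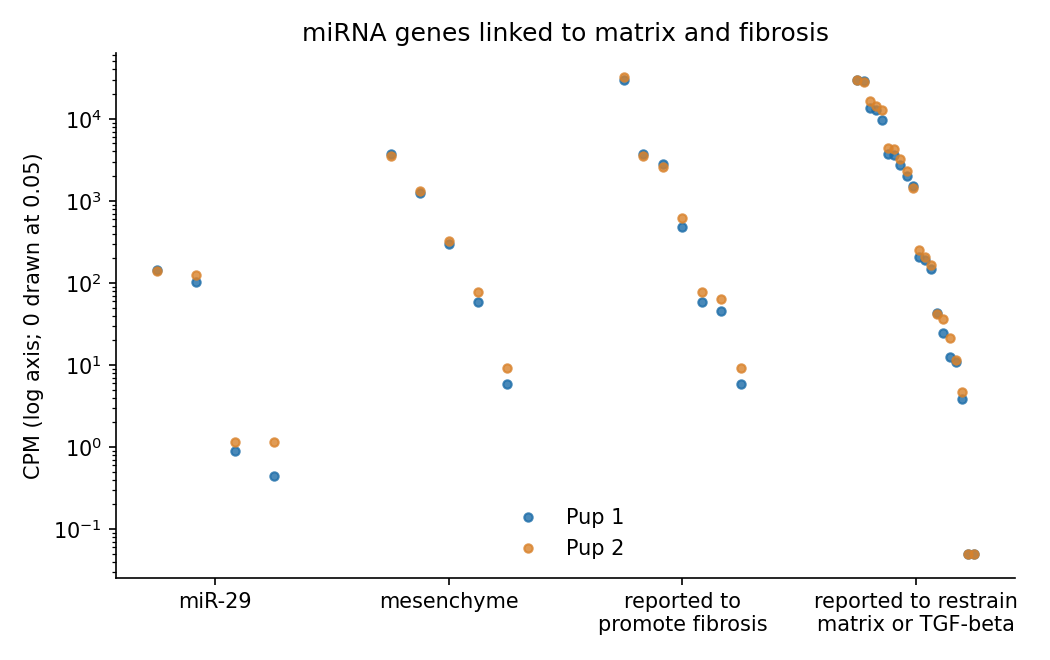
CPM of each gene (log axis, with 0 drawn at the bottom) in pup 1 and pup 2 for miR-29 and for 3 lists of miRNA genes linked to mesenchyme, to promoting fibrosis and to restraining matrix genes or TGF-beta signalling, ordered by level within each list. The highest gene of each list stands at least 10-fold above Mir29a, and within each list levels run over several powers of 10.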

How the data were processed

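The authors deposited a table of raw read counts per library, without header or normalization, holding for each gene an unstranded count and 1 count for either strand. Per the deposited description files, the assembly is mm10 and the annotation GENCODE M4. For the aligner, the counter and the adapters, nothing is given in the sources used here. The strand column with the larger total (97.7% and 97.8% of gene counts) was used as the strand of the gene. Reads unmapped (8.70% and 8.94%), mapping to several places (26.0% and 25.7%) or outside annotated genes (1.78% and 1.70%) stayed out of totals.

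Symbols and positions came from GENCODE M21 on GRCm38, which is the mm10 assembly, and 1894 of 1973 identifiers matched. Sequences came from RefSeq, where all 4 miR-29 genes matched. RefSeq's table is not complete, so sharing of mature strands is understated. Stretches of 20 nt were compared among M21 hairpins. Exact intervals are Clopper-Pearson, and the floor is 3 counts. Python 3.11.15 with scipy 1.17.1, and edgeR 4.0.16 and DESeq2 1.42.0 in R 4.3.3, were used. On simulated counts for the pup comparison with 305 genes, 99 of 100 genes changed 2-fold, 100 of 100 changed 4-fold and 0 of 105 unchanged genes were called. The test takes in counting error alone, so these numbers do not give its error rate in the real libraries. There edgeR's common dispersion called 1 gene in place of 9.

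The members, lists and alternatives were chosen with earlier results of these data known. Named genes are the 4 members, their nearest detected neighbours in level, the 2 highest genes of each list and the tissue markers. Others (Mir199a-1, Mir199a-2, Mir199b, Mir34a, Mir155, Mir101a, Mir30c-1, Mir30c-2, Mir26a-1, Mir133a-1, Mir133a-2 and Mirlet7f-2) were named after their values were seen.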

Additional observations from a re-analysis of the deposited data

How the results depend on the processing

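Of 76 alternative values, 57 stayed within the SD between pups, within 1.5 times the count of calls or on the same side of the threshold, none changed direction, and the rest follow. Over all reads in the tables, the levels of Mir29a, Mir29c and Mir29b-1 were 88.9, 70.7 and 0.639 per 1000000 and the family's share was 0.0161%. Without Mir143 in the total they were 189, 149.9 and 1.35 CPM and 0.0341%. With both strands counted, Mir29a stood at 139.9 CPM. Divided by hairpin length, Mir29a exceeded Mir29b-1 by 6.66 on the log2 scale. With a minimum of 1 count in each library 4 members were detected, against 25.7% of all genes. Without members that share 20 nt, the mesenchyme list held 0.489%. In a setting chosen after seeing the data, this filter also removed Mir29c and left miR-29 with 0.0143%, from Mir29a alone. The log2 ratios of miR-29 over the lists of mesenchyme, promoting fibrosis and restraining matrix were then -5.09, -8.06 and -9.61. Scaling by total counts called 16 genes between the pups, edgeR's common dispersion 1 and no minimum ratio 159, in place of 9, and none of these settings called a miR-29 gene. Over the settings, adjusted p ran between 0.094 and 0.999 for Mir29a and between 0.012 (total counts, a ratio under 1.5) and 0.999 for Mir29c. Leaving out either pup gave shares of 0.0250% and 0.0268%. No paired analysis was possible because there is 1 group. At this depth the miR-29b genes had 2 to 4 counts, which leave several-fold intervals. Full-length miR-29b-3p mapped to 1 place cannot be among these counts at any depth.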
